A study of Mus musculus with 6 samples.

Results

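Aspn, Ogn and Fmod, which encode asporin, osteoglycin and fibromodulin, are 3 genes of the small leucine-rich proteoglycan family, and they were taken by gene symbol from the 817 genes that the deposited tables hold. RNA was sequenced from cultured mouse cells labelled as 3T3-L1, a fibroblast-derived preadipocyte line, to ask which genes differ when the LIM homeobox factor Lhx8 is targeted with small interfering RNA (siRNA). The siRNA group had 3 libraries labelled LHX8 deficient, and the vehicle group had 3 libraries labelled wild-type that received Turbofectamine, the transfection reagent, alone. All 6 libraries shared the same growth medium, and neither the time after transfection nor the siRNA sequence is given in the labels. With the reagent alone as control, loss of Lhx8 and the presence of any siRNA cannot be told apart. The labels name the cells preadipocytes and raise the number of the line by 1 with each sample (3T3-L1, 3T3-L2 and so on), while the study writes of cultured adipocytes, so the stage and the identity of the cells are not settled. Nothing in the labels says that the libraries of a group were separate cultures, so that a p-value here reflects library-to-library spread alone, part or all of which may be technical.

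Small leucine-rich proteoglycans are secreted proteins of the extracellular matrix whose curved core of leucine-rich repeats binds collagen, and many of them carry chondroitin, dermatan or keratan sulfate chains. They set how collagen fibrils assemble and how thick they grow, and several of them bind growth factors of the transforming growth factor beta (TGF-beta) family. In fat, preadipocytes and other fibroblast-like cells of the stroma are known producers of matrix proteins of this kind. Asporin binds collagen and calcium and is known to hold back TGF-beta signalling in cartilage. Osteoglycin, also called mimecan, takes part in collagen fibril formation. Fibromodulin carries keratan sulfate, binds type I collagen and is known for its role in tendon.

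The expression data came as 2 gene lists. Estimated read counts were listed for 232 genes (the count list), and 602 genes had values on a scale that none of the sources used here names (the second list). Aspn and Ogn were in both lists and Fmod was in the second list only. Of 18 genes of the family that were looked up, 5 were in either list. The others besides the 3 named above were Kera (keratocan, a keratan sulfate proteoglycan of the cornea) in the count list and Prelp (which links basement membranes to collagen) in the second list. The remaining 13, among them Dcn (decorin), Bgn (biglycan) and Lum (lumican), were not analysed here. The lists are selections of the authors from genes that differed between these groups, so the direction of a listed gene is not independent evidence.

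Vehicle 3 differed strongly from all other libraries in its counts. Its total over the 232 genes was 130467, against 24569 to 28919 in the other 5 libraries, and it held the highest count of all 6 libraries for 201 of the 232 genes. These totals cover listed genes only and are not library depths. Genes were listed for differing between groups that include vehicle 3, so they are not a neutral sample of that library. In the second list the library medians lay between 60.1 and 67.2, with unknown depth behind them. Lhx8 was in neither list, so the knockdown could not be checked in these libraries. The study reports that LHX8 immunostaining was lost in cultured primary mouse adipocytes after Lhx8 siRNA. Markers of other cell types in the count list moved with vehicle 3. The summed count of the 3 leukocyte markers present of 10 (Itgb2, Mpeg1 and Cd33) was 27 to 34 in the siRNA libraries and 25 to 308 in the vehicle libraries. That of the 3 endothelial markers present of 8 was 55 to 88 and 79 to 517, and that of the 2 mesothelial or epithelial markers present of 8 was 605 to 721 and 592 to 3740. Vehicle 3 was the highest library for each of these 8 markers, none of them was at 0 in a library, and the defining markers Ptprc, Pecam1 and Epcam were in neither list. The 1 tendon or cartilage marker of 8 in the count list, Ucma, had 1 count in each siRNA library and 0, 3 and 18 in vehicle 1, 2 and 3. The part of these markers in the results was not tested. Of 10 markers of fibroblasts or preadipocytes 3 were listed (Pdgfra, Col3a1 and Ly6a), and of 10 adipocyte markers 2 (Adipoq and Lpl), so the label of the cells could be checked in part only.

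The sequences before the starts of the 3 genes are shown because Aspn and Ogn were lower and Fmod was higher with siRNA in the second list, and because the targeted factor is a homeodomain protein. They are the 250 bases before each start on the plus strand, from RefSeq on GRCm38.p6, and capitals mark TAATTG, 1 of the 2 homeodomain-type words that were searched. The windows are chr13:49544193-49544442 for Aspn, chr13:49607765-49608014 for Ogn and chr1:134037004-134037253 for Fmod.
Aspn: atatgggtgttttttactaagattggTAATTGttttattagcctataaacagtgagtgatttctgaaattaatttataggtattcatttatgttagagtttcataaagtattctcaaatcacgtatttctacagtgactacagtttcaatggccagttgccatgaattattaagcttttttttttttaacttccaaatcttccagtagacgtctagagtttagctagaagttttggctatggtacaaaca
Ogn: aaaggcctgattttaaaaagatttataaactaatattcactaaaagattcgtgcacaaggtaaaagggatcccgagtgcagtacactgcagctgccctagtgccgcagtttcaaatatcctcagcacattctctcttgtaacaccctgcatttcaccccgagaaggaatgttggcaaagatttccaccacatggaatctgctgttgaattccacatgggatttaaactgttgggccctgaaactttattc
Fmod: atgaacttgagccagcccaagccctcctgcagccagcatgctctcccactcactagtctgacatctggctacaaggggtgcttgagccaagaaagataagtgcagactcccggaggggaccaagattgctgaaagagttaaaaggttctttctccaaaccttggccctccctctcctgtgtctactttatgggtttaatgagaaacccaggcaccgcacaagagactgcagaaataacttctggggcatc
The words TAATTA and TAATTG were searched on both strands. They share their first 5 letters, so both cannot match at the same start on the same strand, though neighbouring matches may share bases. The Aspn window held 1 TAATTG, 224 bases before the start, and the Ogn and Fmod windows held neither word. Over 32851 promoter windows of the same length, 11.3% held at least 1 of the words, 4.84% TAATTA and 7.17% TAATTG. The GC content of the windows was 30% for Aspn, 42% for Ogn and 51.2% for Fmod.

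In the count list, Aspn was lower in every siRNA library than in every vehicle library, but the difference did not pass the test across all genes. The counts of Aspn (ENSMUSG00000021388) were 82, 93 and 112 in siRNA 1, 2 and 3, against 139, 136 and 785 in vehicle 1, 2 and 3. The siRNA libraries lay close together, and vehicle 3 was far above vehicle 1 and 2. The mean was 95.7 ± 15.2 (SD, n = 3) with siRNA and 353 ± 374 (SD, n = 3) with vehicle. The fitted log2 difference, siRNA minus vehicle, was -1.88 ± 1.05 (SE), with an adjusted p of 0.317 in edgeR's quasi-likelihood test (Benjamini-Hochberg over the 232 genes). Without vehicle 3 it was -0.52 ± 0.20, with an adjusted p of 0.394 in edgeR. The exact permutation test, two-sided, gave p = 0.1 for Aspn, the smallest that 3 against 3 libraries allow. A lower level in bulk RNA may come from fewer cells that express a gene or from less RNA per cell, which cannot be told apart here.

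No gene of the count list passed an adjusted p of 0.05 in edgeR, which is 0% in either direction, with all libraries or without vehicle 3. At an unadjusted p under 0.05 there were 27 genes (11.6%) with all libraries and 22 of 201 (10.9%) without vehicle 3. DESeq2 with its own size factors called 1 gene, and DESeq2 with fixed size factors and limma-voom called 0. Groups that did not overlap were found for 12.5% of the genes in the direction of Aspn and for 6.03% in the other direction, and for 12.9% and 14.7% when vehicle 3 was left out. Aspn was 1 of 29 such genes in its direction.

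Ogn (ENSMUSG00000021390) was the most abundant of the family in the count list, and its groups overlapped. Its counts were 294, 317 and 458 in siRNA 1, 2 and 3, against 379, 465 and 2196 in vehicle 1, 2 and 3. The count of siRNA 3 lay above that of vehicle 1. The mean was 356 ± 88.8 (SD, n = 3) with siRNA and 1013 ± 1025 (SD, n = 3) with vehicle. The log2 difference was -1.51 ± 0.92 (SE, adjusted p = 0.317, edgeR), and without vehicle 3 it was -0.24 ± 0.24 (adjusted p = 0.698, edgeR). Per kilobase of listed transcript, the count of Ogn was above that of Aspn in every library, at 115 to 178 against 35.4 to 48.3 counts per kilobase with siRNA.

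Kera (ENSMUSG00000019932) had low counts in 5 of the 6 libraries. Its counts were 9, 15 and 8 in siRNA 1, 2 and 3, against 9, 14 and 103 in vehicle 1, 2 and 3. Only vehicle 3 stood out. The log2 difference was -1.96 ± 1.10 (SE, adjusted p = 0.317, edgeR), and without vehicle 3 it was -0.11 ± 0.43 (adjusted p = 0.896, edgeR). The counts of the other 5 libraries lay between 8 and 15, and without vehicle 3 the difference was smaller than its SE.

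**Figure D1:**
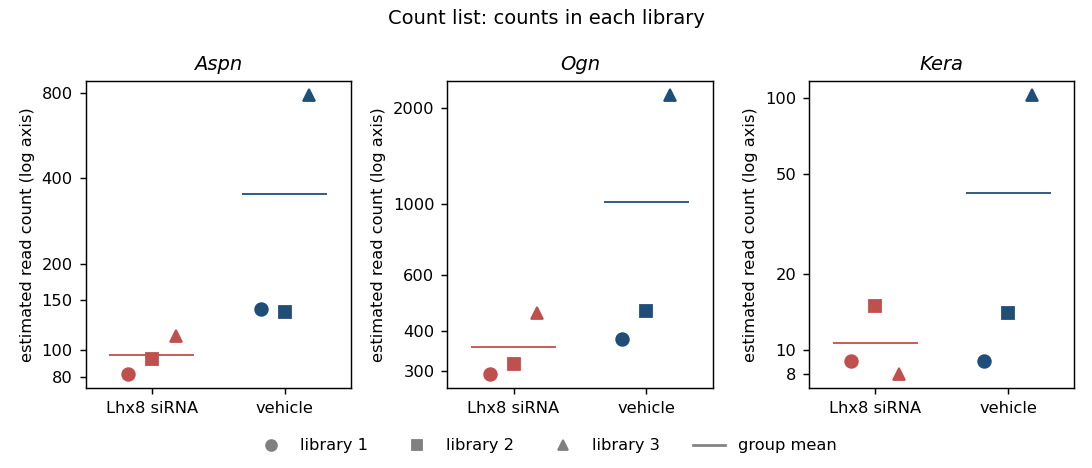
Estimated read counts of Aspn, Ogn and Kera in the count list, on log axes, for each of the 3 siRNA and 3 vehicle libraries, with the marker shape giving the library number and the line the group mean. Vehicle 3 is the highest library for each gene (785, 2196 and 103), and only for Aspn do all siRNA libraries lie below all vehicle libraries.

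The excess of vehicle 3 over the other vehicle libraries was, for the 3 family genes of the count list, within the range of most listed genes. The count in vehicle 3 over the mean of vehicle 1 and 2 was 5.71 for Aspn, 5.20 for Ogn and 8.96 for Kera, and the median over 216 genes was 5.82. On the log2 scale these were 2.51, 2.38 and 3.16, against a list median of 2.54 and an interval from the 10th to the 90th percentile of 0.91 to 4.21. As the genes were listed for differing between groups that include vehicle 3, this range is not a neutral background. The same library was near the others in the second list. There the ratio was 1.03 for Aspn, 1.06 for Ogn, 0.839 for Fmod and 1.01 for Prelp, and the median over 386 genes was 1.04. The high level of vehicle 3 in the counts of Aspn and Ogn was thus not met in the values of these genes in the second list.

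**Figure D2:**
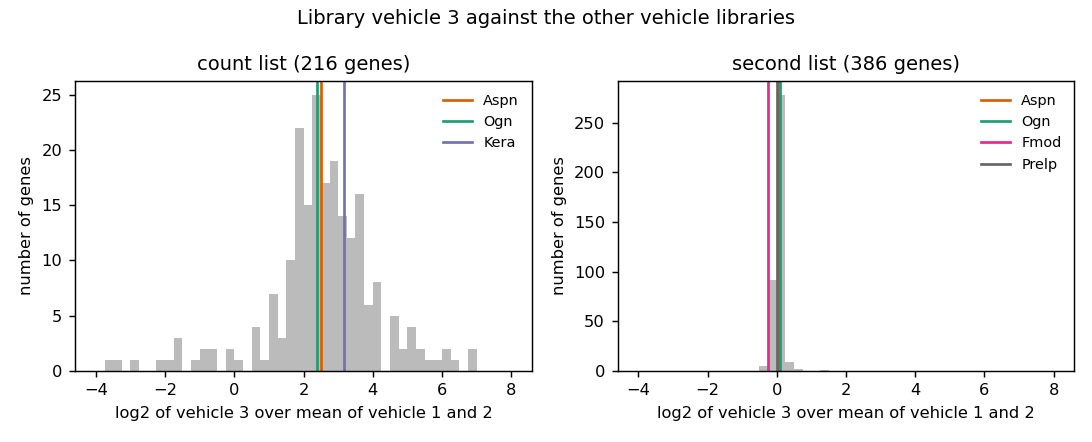
Distribution over genes of the log2 ratio of vehicle 3 to the mean of vehicle 1 and 2, for each of the lists, with vertical lines for the family members. The count list is centred on a median of 2.54 and the second list on 0.05, and Aspn and Ogn lie near the median in each.

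TMM normalization and the omission of vehicle 3 each made the median difference of the count list smaller in size. The shift varied between genes. The median log2 difference over the list was -1.55 with 1 common library size, -0.12 with TMM normalization and -0.10 without vehicle 3. With TMM the difference was -0.43 ± 0.22 for Aspn, -0.11 ± 0.23 for Ogn and -0.30 for Kera, all negative and none past the threshold (adjusted p of 0.650, 0.933 and 0.893, edgeR). Relative to the median of the list, Aspn was at -0.34 with all libraries and -0.42 without vehicle 3, whereas Ogn was at 0.04 and -0.15. As a share of the total of the count list, Aspn took 0.337% to 0.451% with siRNA and 0.481% to 0.602% with vehicle, with no overlap (exact permutation test, p = 0.1, the smallest possible). Ogn took 1.21% to 1.84% and 1.31% to 1.89%, which overlapped (exact permutation test, p = 0.5).

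In the second list Aspn and Ogn fell and Fmod and Prelp rose with siRNA. Aspn had values of 85.6 and 88.5 in siRNA 1 and 3, against 116, 107.5 and 115 in vehicle 1, 2 and 3. Its siRNA 2 cell had been filled in before deposit and was not used. The mean fell by 22.9%, from 113 ± 4.67 (SD, n = 3) to 87.0 ± 2.00 (SD, n = 2). The groups did not overlap, and the log2 difference was -0.37 ± 0.06 (SE, adjusted p = 3.24e-05, limma). Log2 differences here are on the scale of the value plus 0.1.

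Ogn had values of 215, 233 and 215 in siRNA 1, 2 and 3, against 264, 253 and 274.5 in vehicle 1, 2 and 3. Its mean fell by 16.3%, from 264 ± 10.8 (SD, n = 3) to 221 ± 10.2 (SD, n = 3). Every siRNA library was below every vehicle library, in contrast to the counts of the same gene. The log2 difference was -0.26 ± 0.05 (SE, adjusted p = 1.46e-04, limma).

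Fmod was the only one of the 3 genes that was higher with siRNA. Its values were 53.0 and 46.4 in siRNA 1 and 2, with siRNA 3 filled in and not used, and 39.2, 33.7 and 30.6 in vehicle 1, 2 and 3. The mean was 49.7 ± 4.67 (SD, n = 2) with siRNA and 34.5 ± 4.38 (SD, n = 3) with vehicle, a ratio of 1.44. The groups did not overlap, and the log2 difference was 0.53 ± 0.09 (SE, adjusted p = 6.31e-05, limma). Prelp, the neighbour of Fmod on the chromosome, rose less. Its values were 117, 116 and 114 in siRNA 1, 2 and 3, against 102, 103 and 103 in vehicle 1, 2 and 3, a log2 difference of 0.17 ± 0.05 (SE, adjusted p = 0.00362, limma).

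**Figure D3:**
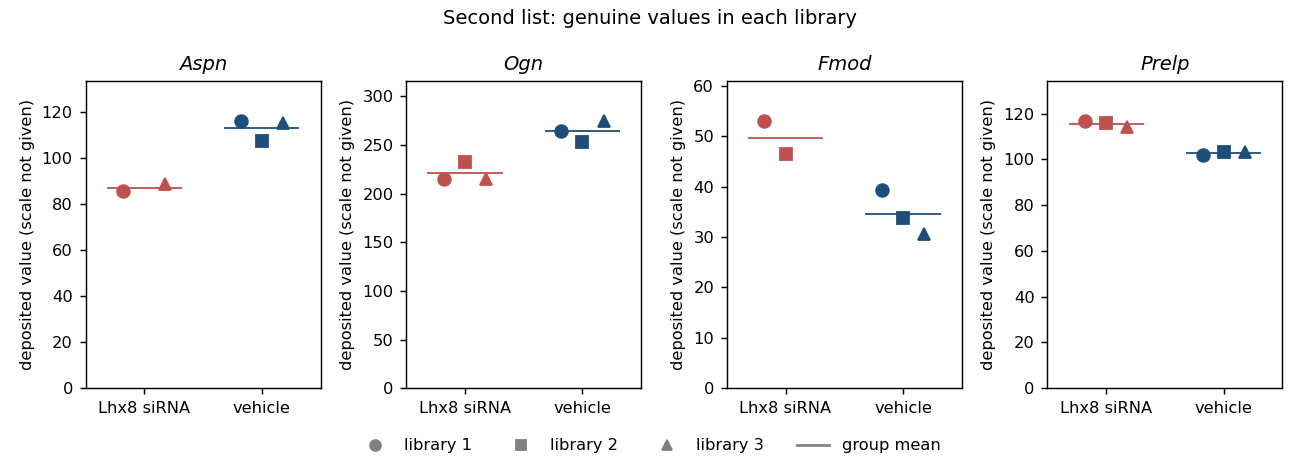
Values of Aspn, Ogn, Fmod and Prelp in the second list, on a scale that is not given, for each library with a genuine value, on axes that start at 0 and with the group mean as a line. The siRNA libraries lie below the vehicle libraries for Aspn and Ogn and above them for Fmod and Prelp, without overlap.

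These calls have to be read against the list, where nearly every gene was called. Of 496 genes tested, 242 (48.8%) fell and 246 (49.6%) rose at the threshold of 0.05 on the adjusted p (limma). Groups without overlap were found for 48% of the genes in the lower and 48.8% in the higher direction (48% and 50.2% without vehicle 3). That all 4 family genes were called, 2 in each direction, is therefore close to the background. In the same fit without vehicle 3 (45.8% and 48.2% called) the log2 differences were -0.36 for Aspn, -0.23 for Ogn, 0.45 for Fmod and 0.17 for Prelp, and all were called. With each library centred on its median they were -0.29, -0.18, 0.60 and 0.24. The limma test draws the spread of a gene toward that of the 496 tested genes, which were selected for differing. Its small p-values thus do not rest on the few libraries of 1 gene alone. The exact permutation test for a single gene gave p = 0.1 for Ogn and Prelp and p = 0.2 for Aspn and Fmod, in each case the smallest that the number of libraries allows.

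Markers of fibroblasts or preadipocytes and of adipocytes were lower with siRNA, as Aspn and Ogn were but Fmod and Prelp were not. In this list 48.8% of the tested genes were called lower. The 3 listed markers of fibroblasts or preadipocytes fell, by 0.27 for Pdgfra, 0.21 for Col3a1 and 0.39 for Ly6a on the log2 scale, and the 2 listed adipocyte markers fell by 1.47 (Adipoq) and 0.29 (Lpl), each called in limma. The values of Adipoq were 3.47 and 2.83 in siRNA 1 and 3, against 8.76 and 8.96 in vehicle 1 and 2. Of the tendon or cartilage markers Sox9 fell by 0.33, and Col2a1 had no genuine vehicle value. The part of these markers in the results for the family was not tested.

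**Figure D4:**
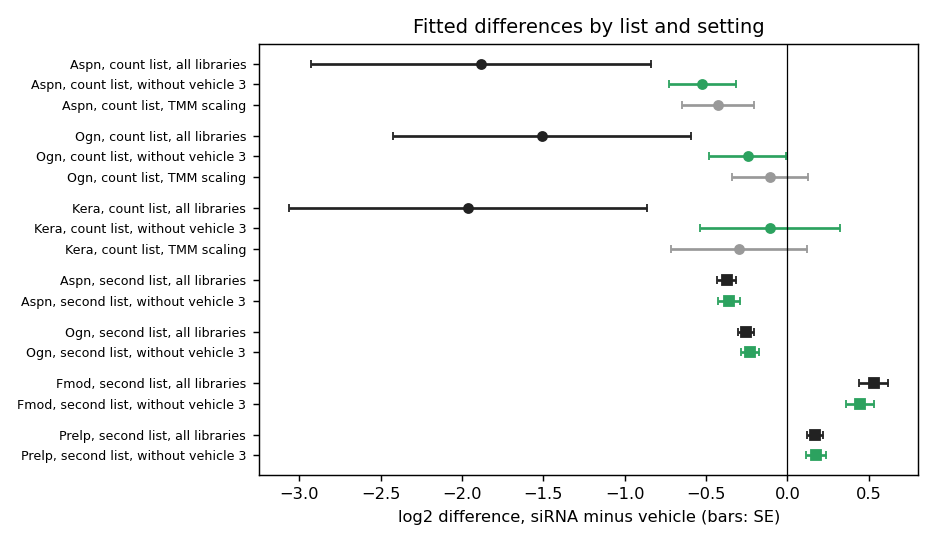
Fitted log2 differences, siRNA minus vehicle, with their SE for the family genes in each list. The settings are all libraries and without vehicle 3, and for the count list only also TMM normalization. In the count list Aspn moves from -1.88 to -0.52 when vehicle 3 is left out, while in the second list it stays at -0.37 and -0.36 and Fmod stays above 0.

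Aspn and Ogn could be set side by side between the lists. The value in the second list over the count was 0.732, 0.734 and 0.469 for Ogn in siRNA 1, 2 and 3, against 0.698, 0.544 and 0.125 in vehicle 1, 2 and 3. For Aspn it was 1.04 and 0.790 in siRNA 1 and 3, against 0.835, 0.790 and 0.147 in vehicle 1, 2 and 3. The ratio was lowest in vehicle 3 for both genes, and it varied between the other libraries too. The count of Ogn was 294 in siRNA 1 but 458 in siRNA 3, while its second-list value was 215 in each, and it is the count of siRNA 3 that made the Ogn groups overlap in the count list. Without vehicle 3 the difference of Aspn was -0.52 by counts and -0.36 by second-list values, and that of Ogn was -0.24 and -0.23. Each difference was negative in both lists, with a call in the second list only. That of Ogn by counts was close to its SE of 0.24. Of the genes in both lists, 12 of 16 were lower in the count list without vehicle 3, against 119 of all 201 tested. In the second list with all libraries it was 10 of 12, against 243 of all 496 tested. The 2 counts differ in their genes and libraries. Both lists come from the same 6 libraries and are not independent.

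Ratios within a library do not depend on its depth. The ratio of Aspn to Ogn in the count list was 0.279, 0.293 and 0.245 in siRNA 1, 2 and 3, against 0.367, 0.292 and 0.357 in vehicle 1, 2 and 3. The groups overlapped by a narrow margin, and the log2 difference was -0.31 (exact permutation test, two-sided, p = 0.2, where 3 against 3 libraries allow no p below 0.1). In vehicle 3 the ratio was within the range of the other vehicle libraries, although both counts were high there. The ratio in the second list was 0.398 and 0.412 with siRNA, against 0.439, 0.425 and 0.419 with vehicle, a log2 difference of -0.08 (exact permutation test, p = 0.2, the smallest possible). The ratio of Fmod to Ogn was 0.246 and 0.199 with siRNA, against 0.148, 0.133 and 0.111 with vehicle, 1.70 times higher with siRNA and without overlap (exact permutation test, p = 0.2, the smallest possible). The ratio of Prelp to Ogn was 1.35 times higher with siRNA (exact permutation test, p = 0.1, the smallest possible).

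**Figure D5:**
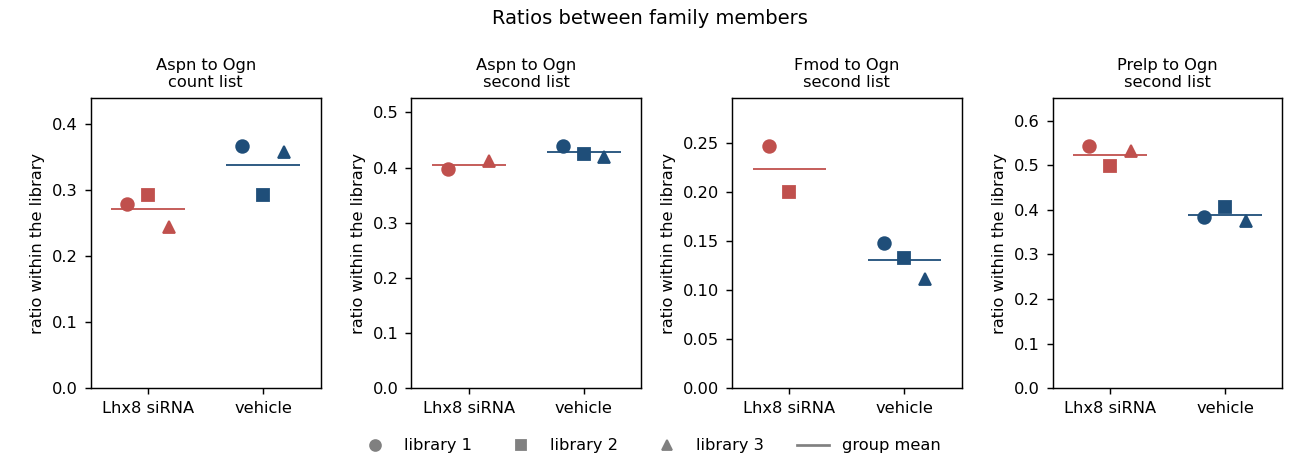
Ratios between family genes within each library, on axes that start at 0, with group means as lines. The Aspn to Ogn ratio of the count list overlaps between the groups (0.245 to 0.293 with siRNA, 0.292 to 0.367 with vehicle), and the Fmod to Ogn ratio of the second list does not (0.199 to 0.246 and 0.111 to 0.148).

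The genes lie in clusters of the family. In RefSeq's order on GRCm38.p6, Ecm2, Aspn, Omd (osteomodulin) and Ogn follow each other on chromosome 13, and Optc (opticin), Prelp and Fmod on chromosome 1. Kera lies on chromosome 10 beside Dcn, Lum and Epyc. Both genes from chromosome 13 were lower and both from chromosome 1 were higher with siRNA in the second list. There 48.8% of the tested genes were called lower and 49.6% higher, so agreement within these pairs cannot show a pattern by cluster. Ecm2, Omd and Optc were in neither list.

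The genes with the profile most like that of each member were found by the root mean square difference of log2 profiles over the libraries, each centred on its mean. For Aspn in the count list, among 127 genes and over 6 libraries, Ogn was the nearest at 0.20, followed by Capn6 (0.20), Lama5 (0.23) and Clec14a (0.24), against a median of 0.46. Without vehicle 3 the nearest were Casp12, Tmem119, Ogn and Laptm4b. For Ogn the nearest in the count list was Capn6 (0.11), and Aspn was the 5th of 127 genes and the 7th without vehicle 3. Over the 5 libraries with a value in the second list, Aspn was nearest to Gstm1 (0.02), Efemp1 (0.04), Mgst1 (0.04) and Gas1 (0.04), and Ogn was the 5th of 272 genes. Ogn was nearest to Ssc5d (0.03), Abhd4, Fstl1 and Ctns. Such distances are small for many genes of the list, with 110 of 251 within 0.1 of Ogn.

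Fmod had fewer near profiles, with a median distance of 0.35 over 280 genes and its 5 libraries. Among its 4 nearest were Ctgf (connective tissue growth factor) at 0.09, Glipr1 at 0.12 and Nuak1 at 0.14. Prelp was the 69th and Ogn the 212th of the 280 genes. Without vehicle 3, Tagln, Ctgf and Fhl1 were among the 4 nearest of 297 genes.

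Of the 23 ligands, receptors and targets of TGF-beta and bone morphogenetic proteins that were looked up, 8 were in the second list and 7 could be tested. Of these 3 fell and 4 rose, in a list where 48.8% of the tested genes were called lower and 49.6% higher. Their median log2 difference was 0.29, against 0.13 over all genes tested. Both medians follow which direction held more genes, so they show no shift of the set. The ligand Tgfb1 fell by 0.15 and the TGF-beta-induced matrix protein Tgfbi fell by 0.38 on the log2 scale. Ctgf (0.41), Thbs1 (0.51), a matrix protein that activates latent TGF-beta, and Acta2 (0.29), smooth muscle actin, rose (limma, adjusted p under 0.05 for each). Genes reported as targets of the pathway were thus found in both directions.

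Of 21 fibrillar collagens and fibril partners, the proteins that the family binds, 12 were in the second list and 9 were tested, of which 6 fell and 3 rose (median -0.21). Without vehicle 3 it was 5 and 3, as Matn2 had an adjusted p of 0.0564 (limma). Over all tested genes 48.8% were called lower and 49.6% higher, or 45.8% and 48.2% without vehicle 3. The median follows which direction held more genes, so it shows no shift of the set. Among the most abundant, Col6a2 (-0.21) and Col3a1 (-0.21) fell, and Col5a2 (0.17) and Col6a3 (0.17) rose, on the log2 scale. Sparc and Col6a1 had 1 genuine vehicle value each and were not tested. Dpt (dermatopontin), which binds decorin and collagen, was in both lists. It fell by 0.81 in the second list (adjusted p = 6.62e-07, limma), and in the count list its log2 difference was -1.68 (adjusted p = 0.317, edgeR) and -0.07 without vehicle 3.

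Of the enzymes that process or cross-link collagen, Lox (lysyl oxidase) rose by 0.29 and Bmp1, which cleaves procollagen, fell by 0.16 on the log2 scale, the 2 tested of 3 listed. Of the matrix proteases and inhibitors in the second list, Mmp2 (-0.22) and Htra3 (-0.33) fell and Adamts1 (0.33) rose. Of the enzymes that build or sulfate glycosaminoglycan chains, Chst11 fell by 0.29, the 1 tested of 2 listed. All of these shares are to be read against the 48.8% and 49.6% of the second list that were called in each direction. In the count list the protease Mmp9 had a log2 difference of -1.06 with all libraries and 0.47 without vehicle 3. That of Htra3 was -3.16 and -0.96 there. None of these count differences was called in edgeR.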

How the data were processed

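Polyadenylated RNA of 6 libraries was sequenced, 3 with Lhx8 siRNA and 3 with vehicle, as grouped by the sample titles. Per the study's methods, reads were aligned with HISAT and Bowtie2, gene levels came from RSEM and DESeq2 compared the groups. Tool versions, the genome build and the strand setting of the counting were not given in the sources used. Whether overlapping genes on opposite strands were counted apart is therefore not known. Estimated counts make up the count list, deposited by the authors as read counts, and 86.8% of them are whole numbers. The second list was deposited under the same heading, but 0.920% of its genuine values are whole, so it was treated as a score of unknown scale. Of its 3612 cells 3042 were genuine, 528 were in date format and equal to the mean of the remaining values of their group within 0.01, and 42 were calendar dates. Only genuine values were used. Filled-in cells make the spread look smaller. The authors' own log2 ratios, p-values and group means were not used.

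Counts were rounded and tested with edgeR 4.0.16 (R 4.3.3) with 1 common library size, since totals of a selected list are not library sizes, for genes with a summed count of at least 10. The second list was log2-transformed after adding 0.1 and tested with limma 3.58.1 using a trended prior, where both groups had 2 or more genuine values. Benjamini-Hochberg adjustment was made over each list, with a threshold of 0.05. DESeq2 1.42.0, TMM, voom, other pseudocounts and filters, and the omission of each library were alternatives. The scripts were tested on simulated data. Named genes were the members, other family genes in either list, the 6 most abundant listed members of each other gene list, and the 4 nearest profiles (mean value of at least 20, log2 of the value plus 1). A gene that these rules name is not reported here. Dpt in the second list, Matn2 and genes named for their count were chosen after their values were seen, as were the tests of Aspn, Ogn and Prelp in the second list and of Kera. The members and lists were chosen with earlier results of these data known.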

Additional observations from a re-analysis of the deposited data

How the results depend on the processing

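Under every alternative that could be run, Aspn and Ogn in both lists, Kera, Fmod and Prelp kept their direction and their side of the threshold. Under every alternative most genes of the second list were called, and few or none of the count list. Keeping a side of the threshold therefore says little about these genes. The Aspn to Ogn ratio kept its direction, with log2 differences of -0.42 to -0.24, and its exact test could not reach 0.05 under any alternative. The log2 difference ranged from -2.27 to -0.43 for Aspn and from -1.90 to -0.11 for Ogn in the count list, and from -0.41 to -0.29 for Aspn, -0.30 to -0.18 for Ogn and 0.43 to 0.63 for Fmod in the second list. The count of called genes in the count list was 1 with DESeq2 and its own size factors, 1 without vehicle 3 and with TMM (chosen after seeing the data), and 0 to 6 when 1 library was left out, 6 without vehicle 1 and 5 without vehicle 2. No family gene was among those calls. In the second list 271 genes were called, against 488, when only genes with 6 genuine values were tested, since fewer genes entered, and Fmod and Aspn could not be fitted in that setting. Leaving out 1 library gave 444 to 466. When Fmod or Aspn was left with 1 siRNA value, that sample was assumed to vary like the others.

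Libraries with the same number did not deviate together (correlations of 0.07, 0.05 and 0.12 in the count list, and 0.19, 0.05 and -0.02 in the second list), and not every library correlated best with its own number. With the replicate block the log2 differences were -1.35 for Aspn and -1.04 for Ogn (counts), -0.41 for Aspn, -0.26 for Ogn and 0.45 for Fmod in the second list, and -0.31 for the ratio (p = 0.5, exact). The block called 0 count-list genes and 426 second-list genes. The depth of the libraries was not given by the files.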

Other observations

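Other proteoglycans in the second list were on both sides as well. Of 21 large and cell surface proteoglycans 6 were listed and 5 tested, of which 2 fell and 3 rose, in a list where 48.8% of the 496 tested genes were called lower and 49.6% higher, so that calls for all 5 are close to the background. Vcan (versican, a large chondroitin sulfate proteoglycan) had values of 86.8, 99.7 and 89.5 in siRNA 1, 2 and 3, against 148, 155 and 172 in vehicle 1, 2 and 3. It fell by 0.78 on the log2 scale (adjusted p = 7.64e-09, limma). Gpc1 (glypican) fell by 0.28, and Hspg2 (perlecan, 0.21), Sdc2 (0.22) and Sdc3 (0.13), the last 2 syndecans of the cell surface, rose. Cspg4 had 1 genuine vehicle value and was not tested.

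Of 4 elastic fibre and microfibril proteins in the second list, Fbln1 (-0.48), Efemp1 (-0.38) and Ltbp3 (-0.12) fell and Ltbp1 (0.27) rose, against the same background of 48.8% and 49.6%. In the count list Fbn1 (fibrillin) had a log2 difference of -1.03 with all libraries and 0.41 without vehicle 3 (adjusted p = 0.327 and 0.504, edgeR), so its sign rested on vehicle 3. Mfap4 had 1, 0 and 0 counts in siRNA 1, 2 and 3, against 1, 0 and 26 in vehicle 1, 2 and 3. The 4 other leucine-rich repeat genes of the count list were Lrrc15, Lrrc17, Lrrc32 and Lrrn4. They summed to 12 to 16 counts in the siRNA libraries and 15 to 192 in the vehicle libraries. Vehicle 3 was the highest library for each, as for 201 of the 232 genes of that list. Without vehicle 3 the log2 difference was negative for 2 of the 4 and positive for 2.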
